A study of Homo sapiens with 4 samples.

Results

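Genes named LINC plus a number are long intergenic noncoding RNA genes, and 146 of them were detected on all 4 microarrays of a TIA1 RNA immunoprecipitation experiment in KYSE180 cells, an established line from a human esophageal squamous cell carcinoma (ESCC). Members were selected on their symbol, LINC followed by a number, and on measured detection marks. At least 1 probe of the gene had to be marked well above background on each array, in a share of its spots of 0.5 or more. The marks come from the signals of the same arrays, so detection itself is not a finding here. The arrays carried 2296 probes for 1360 LINC genes, and 188 probes for 146 genes met the rule, out of 9238 genes of all kinds that met it. In RNA immunoprecipitation (RIP), an antibody captures a protein with the RNA attached to it, and hybridizing that RNA to an array is called RIP-chip. RNA captured with an anti-TIA1 antibody from cytoplasmic lysates of KYSE180 cells was hybridized to 2 arrays (TIA1 RIP replicates 1 and 2). RNA of KYSE180 cells without immunoprecipitation was hybridized to the other 2 arrays (total RNA replicates 1 and 2). The cells carried no stated genetic change or treatment, all 4 arrays come from this line only, and RNA from IgG immunoprecipitates was not analysed here.

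Long intergenic noncoding RNAs (lincRNAs) are mostly spliced and polyadenylated like mRNAs, but lie between protein-coding genes and have no long conserved reading frame. They are typically present at low level and in few cell types, many stay in the nucleus, and several are known to act by holding a protein or a microRNA. TIA1 has RNA recognition motifs that prefer stretches rich in U, takes part in splicing in the nucleus, and in the cytoplasm binds mRNAs, lowers their translation and gathers in stress granules. The comparison of TIA1 RIP with total RNA asks which transcripts were more or less abundant with TIA1 than in RNA that was not immunoprecipitated. The labels call that RNA total RNA and do not say whether it came from whole cells or from the lysate.

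The windows below are printed because they are the most U-rich 60 bases in the transcripts of 2 LINC genes with a high ratio of TIA1 RIP to total RNA and 3 with a low ratio, as far as a transcript was matched on GRCh37. They are read from the annotated transcript, 5′ to 3′, as DNA letters with T for U, and capitals mark runs of at least 4 T. A window is a description of the transcript and not a binding site. The first 2 are from LINC01375 (chr10:91676206-91676265, minus strand) and LINC01060 (chr4:189458475-189458534, plus strand), which had high ratios, and the others from LINC00973 (chr3:98701766-98701825, plus strand), LINC01793 (chr2:59505940-59505999, plus strand) and LINC01001 (chr11:133730-138057, minus strand, across a splice junction), which had low ratios.
LINC01375: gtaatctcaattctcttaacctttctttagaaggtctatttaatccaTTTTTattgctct
LINC01060: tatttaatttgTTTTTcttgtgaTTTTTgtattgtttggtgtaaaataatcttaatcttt
LINC00973: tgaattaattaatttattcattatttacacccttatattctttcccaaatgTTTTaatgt
LINC01793: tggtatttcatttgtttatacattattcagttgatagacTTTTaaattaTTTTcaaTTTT
LINC01001: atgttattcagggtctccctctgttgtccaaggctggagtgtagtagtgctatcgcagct
LINC01060 and LINC01793 held 2 and 3 runs of at least 4 T in these windows and LINC01001 none. The windows shown are not all of those taken, so no comparison of U content between the high and the low genes is drawn from them.

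Signals are given as scaled log2 signal, the log2 of the background-subtracted spot intensity minus the 75th percentile of its array, with the probes of a gene averaged. The log2 ratio is the mean of the TIA1 RIP arrays minus the mean of the total RNA arrays. Signals of different genes come from different probes and are not compared as amounts of RNA. Total RNA replicate 2 stood apart from the other arrays. Its 75th percentile of intensity was 69.9, against 714 on total RNA replicate 1 and 1271 to 1514 on the TIA1 RIP arrays, and 32.2% of its spots were well above background, against 45.8% to 48.4%. The results below are therefore given against each total RNA array, and the reason for its low intensities was not tested. All 4 arrays lay on the same slide and were read in the same scan. The squamous epithelial markers KRT5, KRT14, KRT6A, KRT17, TP63 and DSG3 were detected on all 4 arrays. None of 5 fibroblast markers was detected on all 4 arrays, and COL1A2 and COL3A1 were detected on none. Of 4 leukocyte markers 3 were detected on all 4 arrays, with CD79A at 4.52 to 6.87 in total RNA and CD3E detected on none. Of 3 endothelial markers VWF was detected on all 4 arrays, and PECAM1 on none. All 4 arrays come from the KYSE180 line, and the reason for the detection of leukocyte and endothelial markers in it was not tested.

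The detection marks, which the rule itself used, are given here to describe the selection and are no result about LINC genes. On TIA1 RIP replicates 1 and 2 and total RNA replicates 1 and 2, 362, 433, 389 and 263 LINC probes were detected. Of all spots, 45.8%, 48.4%, 47.6% and 32.2% were well above background on the same arrays. The low count on total RNA replicate 2 was thus not particular to LINC probes. On all 4 arrays 8.19% of LINC probes were detected, against 26.5% of all probes, and 1670 LINC probes were detected on none. A further 67 LINC probes missed membership on total RNA replicate 2 alone, and 4 on total RNA replicate 1 alone. No share over all probes stands beside these counts, so they are no result about LINC genes. The 67 probes had a median log2 ratio of 0.24 against total RNA replicate 1. Detection on both TIA1 RIP arrays and on neither total RNA array held for 35 LINC probes, 1.52% of LINC probes against 1.29% of all probes. The reverse held for 13 LINC probes, 0.566% against 0.518%. The dimmest detected LINC probe had an intensity of 134, 158, 62.0 and 33.8 on TIA1 RIP replicates 1 and 2 and total RNA replicates 1 and 2, and the brightest undetected probe 175, 208, 81.5 and 43.3, so the marks were not set by intensity alone. No LINC probe had detected and undetected spots on the same array.

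The 146 LINC genes were dim among the genes detected. Their median scaled log2 signal was -0.79 and -0.41 in TIA1 RIP replicates 1 and 2, and -1.24 and 0.63 in total RNA replicates 1 and 2. The medians of all 9238 genes were 1.47, 1.44, 1.45 and 1.84 on the same arrays. Only 24 LINC genes were brighter than the median gene over the 4 arrays. The lowest signal that counted as detected differed between arrays. The lowest gene stood at -3.51, -3.04 and -3.58 on the TIA1 RIP arrays and total RNA replicate 1, and at -1.12 on total RNA replicate 2, a floor that cut off the lower part of the range in which LINC genes lay on the other arrays.

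**Figure D1:**
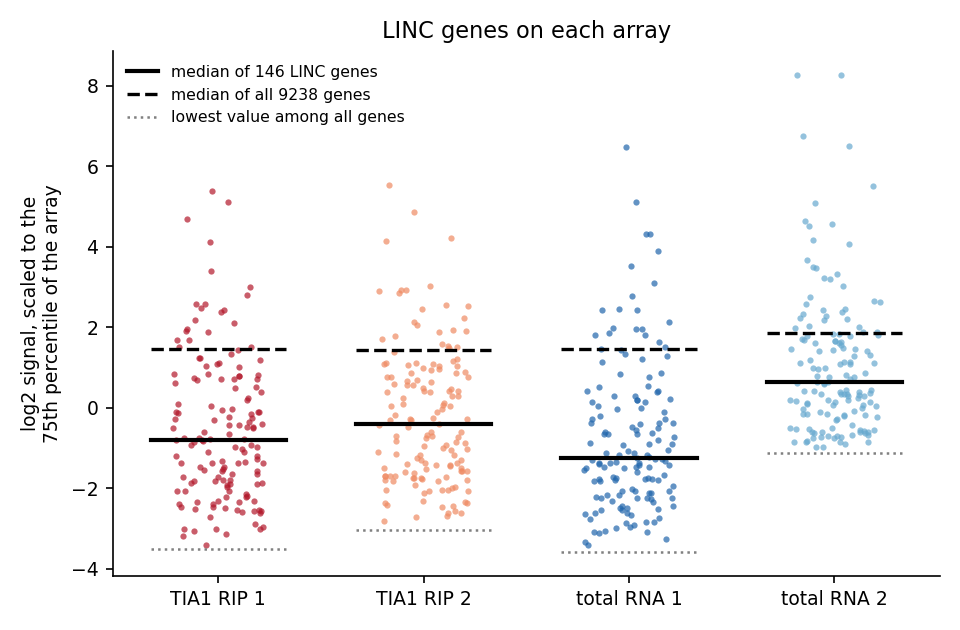
Scaled log2 signal (log2 intensity minus the 75th percentile of the array) of the 146 LINC genes on each array. Each point is a gene, solid lines are LINC medians, dashed lines the medians of all 9238 genes and dotted lines the lowest gene detected on all arrays; the LINC median was highest on total RNA replicate 2 (0.63), where the dotted line is also highest (-1.12).

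Against the 2 total RNA arrays the LINC genes lay on opposite sides. Their median log2 ratio was 0.44 against total RNA replicate 1 and -1.46 against total RNA replicate 2, while all genes had 0.04 and -0.85. LINC genes thus lay 0.40 above all genes in the former comparison and 0.61 below them in the latter. With both total RNA arrays the median log2 ratio was -0.46 (quartiles -1.05 and -0.06, range -3.13 to 2.22), against -0.35 for all genes, a difference of -0.11. The 4 pairs of arrays showed the same split by total RNA array. In TIA1 RIP replicates 1 and 2 the LINC medians were 0.31 and 0.57 against total RNA replicate 1, and -1.59 and -1.35 against total RNA replicate 2. For all genes these medians were 0.02 and 0.04, and -0.84 and -0.83. The sign of the LINC median changed with the total RNA array used, and not with the TIA1 RIP array. These comparisons share their TIA1 RIP arrays.

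**Figure D2:**
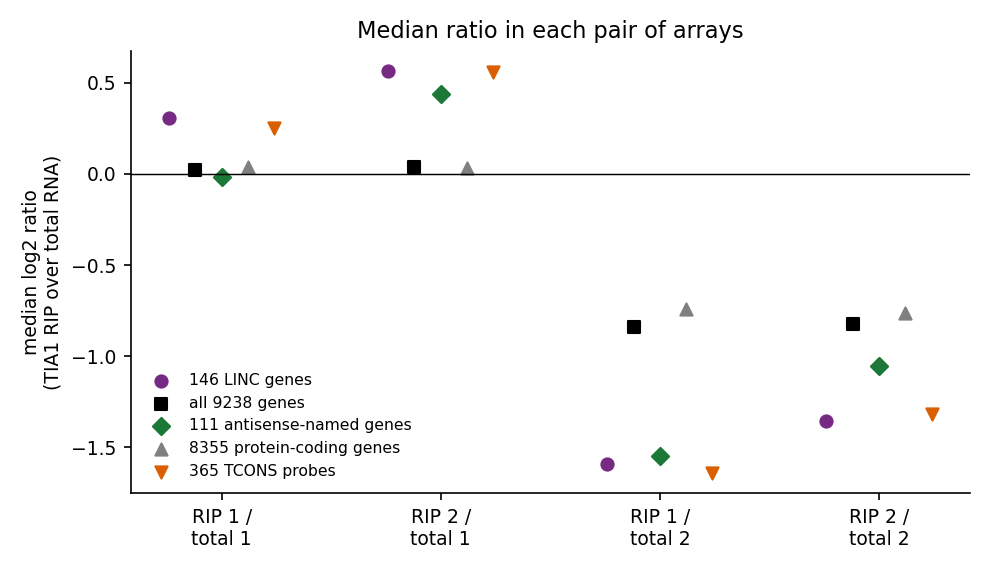
Median log2 ratio (TIA1 RIP over total RNA) in each pair of arrays for LINC genes and 4 other gene groups, with a line at 0. LINC genes had 0.31 and 0.57 against total RNA replicate 1 and -1.59 and -1.35 against total RNA replicate 2, close to the probes with TCONS identifiers and farther from 0 than the protein-coding genes in every pair.

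The total RNA arrays differed from each other more than the TIA1 RIP arrays did. Total RNA replicate 2 exceeded total RNA replicate 1 by a median of 1.96 over the LINC genes and 0.85 over all genes, and was the higher of the pair in 136 LINC genes (93.2%, against 68.4% of all genes). Replicates lay over 1 log2 unit apart for 123 LINC genes in total RNA (84.2%, all genes 61.5%) and for 19 in TIA1 RIP (13.0%, all genes 17.9%). The exceptions, with the higher value in total RNA replicate 1, included LINC00623, LINC01000 and LINC01089. A member under -1.12 on total RNA replicate 1, the floor of total RNA replicate 2, had to be higher on replicate 2. The LINC median on total RNA replicate 1, -1.24, lay under that floor, against 1.45 for all genes. The part of the detection rule in these shares and differences was not tested. Across LINC genes, as a description with genes that share their arrays, the TIA1 RIP arrays correlated with a Pearson's r of 0.923 and the total RNA arrays with 0.845, while TIA1 RIP replicate 1 correlated at 0.892 with total RNA replicate 1.

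For 57 LINC genes (39.0%, against 12.6% of all genes) the TIA1 RIP mean lay under the lowest value any gene had on total RNA replicate 2, so they had to be lower than it. The other 89 LINC genes had a median log2 ratio of -0.30, with 0.61 against total RNA replicate 1 and -1.11 against total RNA replicate 2. All 8078 genes with a TIA1 RIP mean at or above the floor had -0.22, 0.04 and -0.59. These 89 genes, too, had to be detected on total RNA replicate 2, and the part of the floor in their values was not tested.

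No LINC gene passed the test across both total RNA arrays. By limma with Benjamini-Hochberg adjustment over all 9238 genes, 0 of the 146 LINC genes had an adjusted p under 0.05 (0% of all genes), and the lowest adjusted p among them was 0.679. The median standard error of their log2 ratio was 0.89. At an unadjusted p under 0.05, 0 LINC genes were higher in TIA1 RIP (1.04% of all genes) and 7 were lower (4.79%, against 5.69% of all genes), namely LINC00174, LINC00973, LINC01000, LINC01001, LINC01061, LINC01793 and LINC02992. Without total RNA replicate 1, limma called 26 LINC genes (17.8%), all of them lower in TIA1 RIP, against 19.2% of all genes. In that fit the spread comes from the TIA1 RIP arrays alone, which lay closer together than the total RNA arrays, and total RNA replicate 2 is assumed to vary like them. The share of LINC genes called was near that of all genes and is no result about them. Without TIA1 RIP replicate 1, TIA1 RIP replicate 2 or total RNA replicate 2 the LINC median log2 ratio was -0.37, -0.65 and 0.44. The medians of all genes were -0.30, -0.38 and 0.04. The labels do not say that replicates came from separate cultures, so p-values measure the spread between these arrays only, which may be technical, and 2 arrays a group limit the precision of every value.

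Counted gene by gene, the commonest arrangement put TIA1 RIP between the total RNA arrays. Both TIA1 RIP arrays lay above total RNA replicate 1 and below total RNA replicate 2 for 70 LINC genes (47.9%), against 20.2% of all genes. Both were above total RNA replicate 1 in 84 LINC genes (57.5%, against 39.8% of all genes), and both below total RNA replicate 2 in 125 (85.6%, against 61.5%). The 125 include the 57 whose TIA1 RIP mean lay under the floor of total RNA replicate 2, where the detection rule fixed this order. Of the 89 at or above the floor, 68 (76.4%, against 56.2% of all such genes) were below total RNA replicate 2. In 40 of the 89 (44.9%, against 17.9%) both lay above total RNA replicate 1 and below replicate 2. Only LINC01602 lay between the total RNA arrays with total RNA replicate 1 the higher. Both TIA1 RIP arrays exceeded both total RNA arrays for 3 LINC genes (2.05%, against 14.9% of all genes), LINC01375, LINC01060 and LINC00392. That count rose with the scaling, to 10 (6.85%, against 18.2% of all genes) with the median of all genes set to 0 and 8 (5.48%, against 19.1%) with normexp. Both TIA1 RIP arrays lay below both total RNA arrays for 29 (19.9%, against 27.9% of all genes). The remaining 43 had overlapping TIA1 RIP and total RNA values in other orders. A positive log2 ratio was found in 32 LINC genes (21.9%, against 36.96% of all genes).

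**Figure D3:**
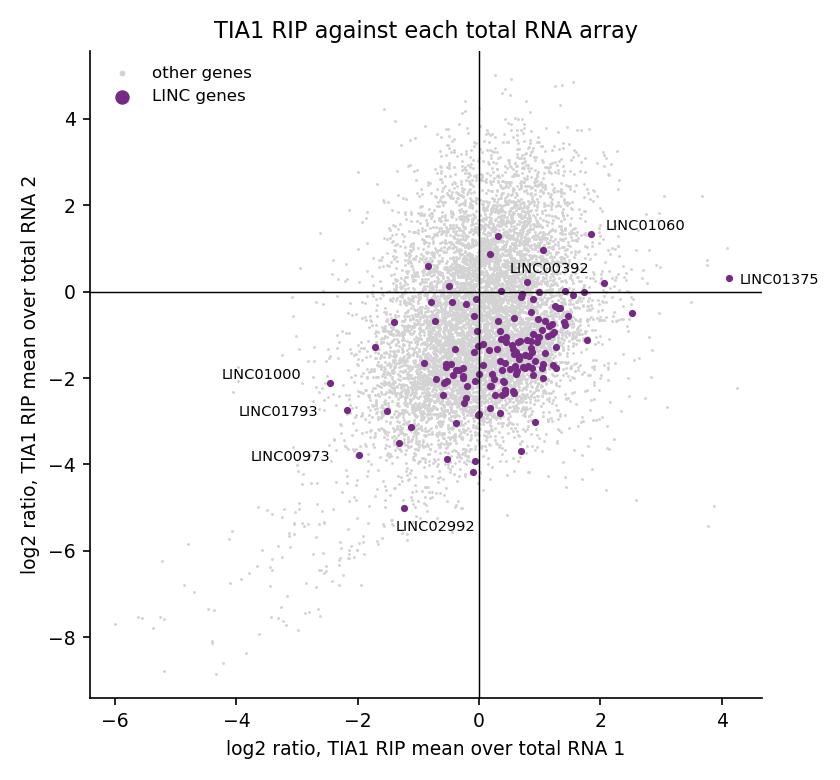
Log2 ratio of the TIA1 RIP mean over total RNA replicate 1 (x axis) and over total RNA replicate 2 (y axis), which share the TIA1 RIP mean, for LINC genes (purple) and the other genes (grey). Most LINC genes lie right of 0 and below 0, with medians of 0.44 and -1.46, and LINC01375, LINC01060, LINC00392, LINC01000, LINC01793, LINC00973 and LINC02992 are labelled.

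Relative to GAPDH, the glycolytic mRNA that the study took as a transcript not bound by TIA1, most LINC genes were high, as were most genes. GAPDH stood at 6.49 and 6.69 in TIA1 RIP and at 7.67 and 9.63 in total RNA, a log2 ratio of -2.06. More than 2.5-fold above GAPDH on the means were 91 LINC genes (62.3%, against 64.2% of all genes), and 0 were more than 2.5-fold below it (1.31% of all genes). In all 4 pairs of arrays 48 LINC genes (32.9%) were more than 2.5-fold above GAPDH, against 24.3% of all genes. The share on the means was close to that of all genes and is no result about LINC genes. It moved with the settings, to 8 LINC genes (5.48%, against 19.2% of all genes) with quantile normalization, 60 (41.1%, against 53.7%) with normexp background correction and 46 (32.9%, against 51.5%) with the GC trend removed. Without total RNA replicate 2 it was 91 LINC genes (62.3%) against 40.9% of all genes. For ACTB, the mRNA of a cytoskeletal actin, the log2 ratio was -1.83. Measured against the median gene instead, only LINC01060 was more than 2.5-fold higher in all 4 pairs (0.866% of all genes), and LINC00973, LINC01001 and LINC01793 were more than 2.5-fold lower in all 4 pairs (2.66% of all genes).

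Among the LINC genes with the highest log2 ratios, few were above total RNA by more than the spread between arrays. LINC01375 (chr10:91675246-91717130, minus strand, 4 exons) stood at 1.33 and 1.71 in TIA1 RIP and at -2.60 and 1.19 in total RNA. Both TIA1 RIP values exceeded both total RNA values, but by 4.12 over total RNA replicate 1 and by 0.33 over total RNA replicate 2, and the log2 ratio of 2.22 had a standard error of 1.22. LINC01060 (chr4:189376732-189459706, plus strand, 6 exons) stood at 0.69 and 1.15 in TIA1 RIP and at -0.92 and -0.42 in total RNA. Its groups did not overlap, and its ratios of 1.84 and 1.34 against the total RNA arrays lay close together. The log2 ratio of LINC01060 was 1.59 (95% interval -0.12 to 3.31), a 3.02-fold difference (limma, unadjusted p = 0.0641, adjusted p = 0.679). LINC00392 (chr13:74138381-74162207, plus strand) stood at 2.81 and 2.89 in TIA1 RIP and at 1.79 and 1.89 in total RNA. Replicates of LINC00392 were within 0.1 log2 units of each other in both groups, and its log2 ratio was 1.00 (95% interval -0.66 to 2.67), with 1.05 and 0.95 against the total RNA arrays. These ratios depended on the GC correction. With the trend of signal on GC content removed on each array, the log2 ratio was 1.47 for LINC01375, 0.83 for LINC01060 and 0.13 for LINC00392. Here and below, that trend was fitted over all genes with a matched transcript and not over LINC genes. The log2 ratio followed GC content less in LINC genes (Pearson's r of -0.15) than in all genes (-0.48).

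The other high LINC genes lay above total RNA replicate 1 and close to total RNA replicate 2, or were split by a single array. LINC01133 (chr1:159931089-159954540, plus strand), reported to bind the splicing factor SRSF6, stood at -2.06 and 1.11 in TIA1 RIP and at -2.54 and -0.69 in total RNA. Its TIA1 RIP arrays were far apart, and without TIA1 RIP replicate 2 its log2 ratio went from 1.13 to -0.45. LINC01121 (chr2:45414309-45419424, minus strand) stood at 0.62 and 1.92 against -1.25 and 1.77 in total RNA. LINC00958 (chr11:13003526-13011124, minus strand), reported to be raised in bladder and oral cancer, stood at 0.51 and 0.86 against -1.04 and 0.70. For both, the TIA1 RIP values bracketed that of total RNA replicate 2, and without total RNA replicate 1 their log2 ratios of 1.01 and 0.85 became -0.50 and -0.02. LINC00299 (chr2:8180064-8258454, minus strand) stood at -0.42 and -0.10 against -1.80 and -0.18, and its log2 ratio of 0.73 became -0.08 without total RNA replicate 1. LINC00623 stood at 5.11 and 4.15 against 4.32 and 3.33, with total RNA replicate 2 the lowest. Its 3 probes gave log2 ratios of 0.69 to 1.00. With the GC trend removed, LINC01133, LINC00958 and LINC00299 had log2 ratios of 0.60, 0.46 and 0.17, while LINC01121 stayed at 1.04.

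Of the 8 LINC genes with the lowest log2 ratios, all but LINC01150 were below both total RNA arrays on both TIA1 RIP arrays. With the GC trend removed on each array, the log2 ratios of LINC00973, LINC01793 and LINC01001 given next were -3.79, -3.49 and -1.79. LINC00973 (chr3:98699902-98701940, plus strand, 2 exons) stood at 4.12 and 4.86 in TIA1 RIP and at 6.47 and 8.27 in total RNA. It was among the brightest LINC genes, its groups did not overlap, and its ratios against total RNA replicates 1 and 2 were -1.98 and -3.78. The log2 ratio of LINC00973 was -2.88 (95% interval -4.92 to -0.84; limma, unadjusted p = 0.0121, adjusted p = 0.679). LINC01793 (chr2:59444843-59506535, plus strand) stood at 1.90 and 0.76 in TIA1 RIP and at 3.51 and 4.07 in total RNA, a log2 ratio of -2.46 with -2.18 and -2.74 against the total RNA arrays. LINC01000 stood at -1.93 and -2.62 in TIA1 RIP and at 0.19 and -0.17 in total RNA. Its log2 ratio of -2.29 was about as low against total RNA replicate 1 (-2.46) as against replicate 2 (-2.11). LINC01001 (chr11:127204-138998, minus strand) stood at 2.99 and 3.01 in TIA1 RIP and at 4.31 and 6.51 in total RNA. The log2 ratio of LINC01001 was -2.41, but its 3 probes ran from -3.92 to -0.48, and stretches of its transcript, of up to 2159 bases, occur nearly identically in 17 other genes, so its signal may be shared with them.

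The other low LINC genes were LINC02992, LINC01993, LINC01150 and LINC00174. LINC02992 had the lowest log2 ratio, -3.13, from -2.89 and -2.36 in TIA1 RIP and -1.38 and 2.39 in total RNA. Its ratio was -1.24 against total RNA replicate 1 and -5.01 against replicate 2. LINC01993 (chr17:76257430-76274573, minus strand) stood at -1.79 and -1.61 in TIA1 RIP and at -1.18 and 2.18 in total RNA. LINC01150 (chr11:1918245-1929886, plus strand) stood at 1.18 and 1.50 in TIA1 RIP and at 1.45 and 5.51 in total RNA. Against total RNA replicate 1 these had ratios of -0.52 and -0.11, and against replicate 2 of -3.88 and -4.17, so that LINC01150 overlapped total RNA replicate 1. LINC00174 (chr7:65874130-65952977, minus strand, 12 exons) stood at -3.41 and -2.46 in TIA1 RIP and at -1.41 and -0.17 in total RNA, with the groups apart and a log2 ratio of -2.14 (-1.52 and -2.77 against the total RNA arrays). The TIA1 RIP values of LINC02992, LINC01993, LINC00174 and LINC01000 lay under the floor of total RNA replicate 2. LINC01061 (log2 ratio -2.14), named for its unadjusted p after its values had been seen, lay below both total RNA arrays and had 3 probes at -2.78 to -0.87. Its TIA1 RIP values of -1.80 and -1.29 were also under that floor, so they had to be lower than total RNA replicate 2.

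**Figure D4:**
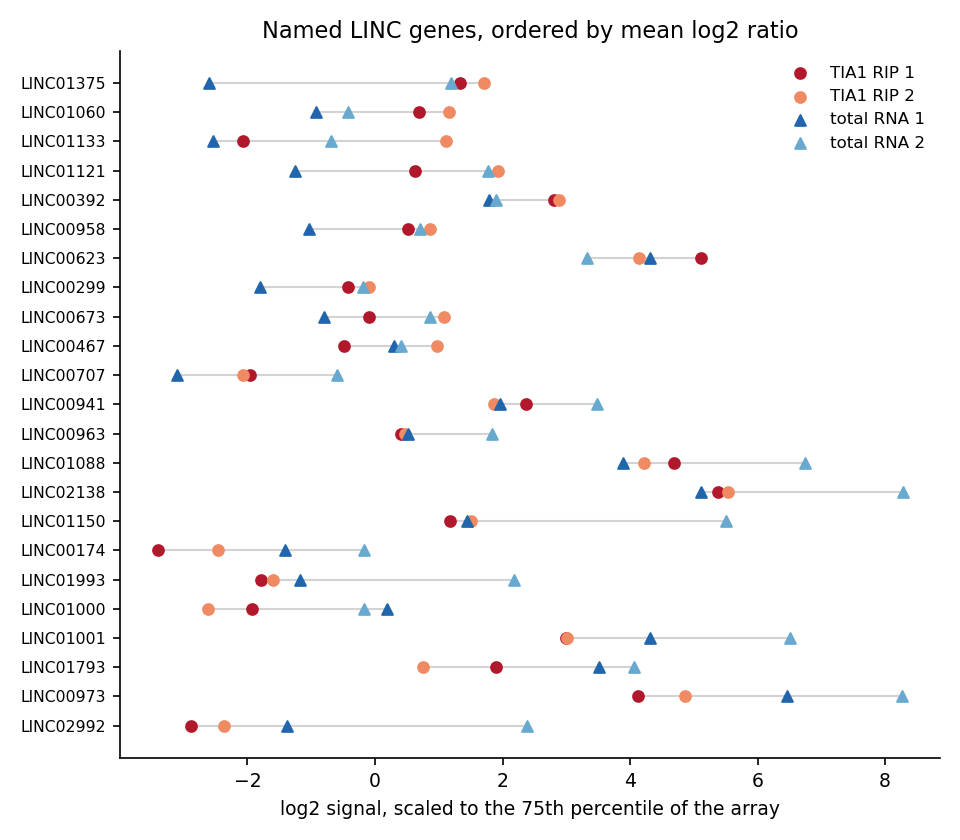
Scaled log2 signal on each array for the 23 LINC genes named by rule, ordered from the highest to the lowest mean log2 ratio, with TIA1 RIP as circles and total RNA as triangles. LINC01375, LINC01060 and LINC00392 had both circles right of both triangles. LINC00973, LINC01793, LINC01001, LINC01000, LINC02992, LINC01993, LINC00174 and LINC00963 had both circles left of both triangles.

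The 5 brightest LINC genes were LINC02138, LINC00973, LINC01088, LINC00623 and LINC01001. LINC02138 (chr16:89232791-89235555, plus strand) stood at 5.37 and 5.53 in TIA1 RIP and at 5.11 and 8.27 in total RNA. LINC01088 (chr4:80132835-80166686, plus strand) stood at 4.69 and 4.21 in TIA1 RIP and at 3.89 and 6.74 in total RNA. Both lay above total RNA replicate 1 and below replicate 2, and their log2 ratios of -1.24 and -0.86 became 0.34 and 0.57 without total RNA replicate 2. With the GC trend removed their log2 ratios were -0.39 and -0.13. Of the other 3, LINC00973 and LINC01001 lay below both total RNA arrays, and LINC00623 had its lowest value on total RNA replicate 2.

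Of 16 LINC genes listed for their reported roles in cancer or gene control, 7 were detected on all 4 arrays. LINC01133 and LINC00958 are described above. LINC00673, which lies at a pancreatic cancer risk locus and is reported to promote the degradation of PTPN11, stood at -0.10 and 1.09 in TIA1 RIP and at -0.81 and 0.86 in total RNA, and its pair of probes gave log2 ratios of -0.14 and 1.08. LINC00467 (chr1:211556117-211608675, plus strand), reported to encode a small mitochondrial peptide, stood at -0.49 and 0.97 against 0.29 and 0.40, with a log2 ratio of -0.11. LINC00707 (chr10:6821532-6884868, plus strand), reported to bind the RNA-binding protein HuR, stood at -1.97 and -2.07 against -3.11 and -0.60. TIA1 RIP lay between the total RNA arrays for LINC00707, while the TIA1 RIP values of LINC00467 fell on either side of both. Those of LINC00707 were under the floor of total RNA replicate 2, so they had to be lower than that array. LINC00941 (chr12:30908101-30955536, plus strand), a regulator in epidermal differentiation, stood at 2.37 and 1.87 against 1.96 and 3.48. LINC00963 (chr9:132251379-132274958, plus strand), described in prostate cancer, stood at 0.40 and 0.47 against 0.52 and 1.83, just under total RNA replicate 1 and well under replicate 2. The log2 ratios of these 5 ran from -0.74 for LINC00963 to 0.47 for LINC00673, with standard errors of 0.79 to 0.96, and none passed the test. With the GC trend removed LINC00467 and LINC00707 had -0.74 and -0.82. LINC01503 (chr9:132094579-132109743, plus strand), known as a target of TP63 in squamous cell carcinoma, was added after its values had been seen because it had the most probes, 9. It stood at 0.09 and 1.07 in TIA1 RIP and at 0.04 and 1.81 in total RNA, and its probes ran from -0.67 to 0.00 in log2 ratio.

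Members with several probes showed how far a value depended on the probe. Of the 146 LINC genes 126 had 1 detected probe and 20 had several. The probes of a gene spanned a median of 0.94 log2 units in ratio, over 1 unit for 10 genes, and had opposite signs for 8. The widest was LINC00265, at -3.26 to 0.23 over 4 probes, followed by LINC01001 and by LINC01347, at -2.63 to 0.46 over 3 probes. All of these have near-identical stretches elsewhere, defined as at least 200 bases with at least 95% identity in a transcript of another gene, which 14 LINC genes had. The 14 had a median log2 ratio of -0.29 against total RNA replicate 1 and the 126 without such a stretch 0.53, and against total RNA replicate 2 they had -1.67 and -1.43. The part of shared signal in these values was not tested.

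The LINC transcripts were shorter and less rich in GC than those of all genes. A transcript was matched on GRCh37 for 140 of the 146, on 23 chromosomes, with 23 on chromosome 2 and 13 on chromosome 1, and 134 were annotated as lncRNA. Their median length was 1353 bases with 3 exons, against 2949 bases and 6 exons over 9103 genes. The transcript was the longest Ensembl transcript named by a probe, or else the longest annotated for the symbol. Lengths were thus not taken alike for all genes, and the part of this in the difference was not tested. Median GC content was 49.0% against 52.3%, and median U content 24.5% against 23.8%. The motif UUUUU occurred at a median of 1.42 matches per kilobase against 2.15, and AUUUA at 0.633 against 0.702, on the transcript strand with overlapping matches counted. LINC00467 had the longest U run, 27 bases, and LINC00963 had 19, with log2 ratios of -0.11 and -0.74. A protein-coding gene was counted within 1 kb of 23 LINC genes, among them LINC00999, which was counted through its own protein-coding annotation. The 23 had a median log2 ratio of -0.84, against -0.39 for the 117 farther away. Against total RNA replicate 1 the medians were 0.36 and 0.57, and against total RNA replicate 2 they were -1.67 and -1.42. LINC00339, LINC01101, LINC00863 and LINC01089 shared exon sequence with a protein-coding gene on the same strand.

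The relation of the ratio to base composition that held across all genes was weak among LINC genes. Across 9103 genes Pearson's r of the log2 ratio was -0.48 with GC content and 0.47 with U content. Across the 140 LINC genes it was -0.15 and 0.03. The relation across all genes lay with total RNA replicate 2, where r with GC content was -0.58 for all genes and -0.18 for LINC genes, and it was -0.06 in both against total RNA replicate 1. LINC genes were split by GC content into the 47 lowest, the 46 in the middle and the 47 highest. Their median log2 ratios were -0.35, -0.45 and -0.71. They were 0.60, 0.44 and 0.42 against total RNA replicate 1, and -1.29, -1.41 and -1.70 against replicate 2. Split likewise by U content, the median log2 ratios were -0.51, -0.34 and -0.51. They were 0.44, 0.53 and 0.42 against total RNA replicate 1, and -1.68, -1.20 and -1.61 against replicate 2. These are descriptions across genes that share the same arrays, and genes are not independent replicates.

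**Figure D5:**
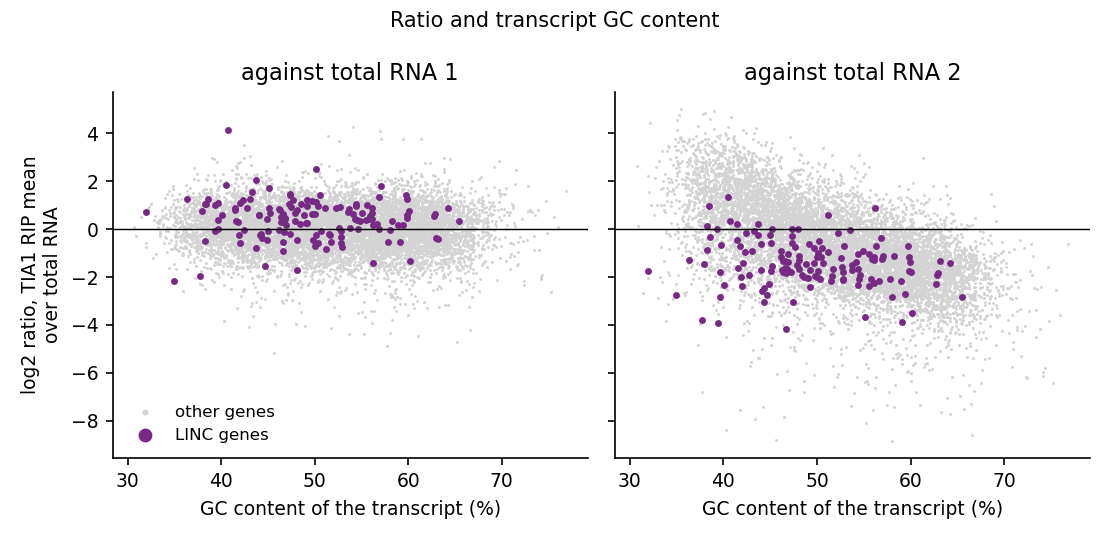
Log2 ratio of the TIA1 RIP mean over each total RNA array against the GC content of the transcript in percent, for 140 LINC genes (purple) and the other genes (grey). Against total RNA replicate 2 the ratio of all genes falls with GC content (r = -0.58), while LINC genes lie mostly below 0 at every GC content (r = -0.18), and against total RNA replicate 1 both show r = -0.06.

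Other noncoding classes were taken under the same detection rule. The 365 probes with TCONS identifiers, which are assembled transcripts without a gene name, had median log2 ratios of 0.46 and -1.47 against total RNA replicates 1 and 2. The 111 genes with antisense names had 0.19 and -1.26, and the 8355 protein-coding genes 0.05 and -0.76. LINC genes had values within 0.1 log2 units of the TCONS probes in both comparisons, while the antisense-named genes lay between the LINC and the protein-coding genes in both. No test of the difference between classes was made.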

How the data were processed

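The authors scanned each single-colour array and deposited Agilent Feature Extraction output (version 10.7 in the submitters' processing notes, 10.7.1.1 in the file headers), which gives a linear intensity per spot, not normalized between arrays. Their later GeneSpring analysis was not used here. The deposited 0 or 1 marks for detected, saturated, uneven and deviant spots were used as filters. Between 299 and 382 of 58717 spots per array were left out, and none was saturated. The log2 processed signal minus the 75th percentile of its array was averaged over the spots of a probe and the probes of a gene.

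Symbols were found for 34510 of 50599 probes (68.2%) through RefSeq names and GENCODE transcripts lifted to GRCh37, the build in the headers. Of the 146 LINC genes 80 were matched by an Ensembl transcript alone. The members and lists were chosen with earlier results of these data known. The named genes are the 8 highest and 8 lowest by log2 ratio, the 5 brightest, those past the adjusted threshold or 2.5-fold from the median of all genes in all 4 pairs, and a list of 16 symbols.

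limma 3.58.1 in R 4.3.3 was fitted over 9238 genes without a block. The code was also run on simulated data with a small, constant spread not taken from these arrays. That run checks the code and tells nothing of power or error rates here. Same-numbered arrays deviated together across all genes (r = 0.520) and LINC genes (r = 0.274), but the labels do not say what the number marks and there are only 2 numbers, so they were not taken as pairs. The most U-rich window was taken for the 3 highest and 3 lowest named genes with a transcript, and a single window, of a gene with a high ratio, is not reported here, so that the windows shown are incomplete. Near-identical stretches were found with blastn 2.17.0. Tables were made with pandas 2.3.3 in Python 3.11.15 and figures with matplotlib 3.10.9. Alternatives covered background correction (normexp, offset 50, on the deposited median intensities in place of the mean intensities first planned), scaling, detection filter, probe choice, older symbols, GC trend, replicate block, reference gene, fold and each array left out.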

Additional observations from a re-analysis of the deposited data

How the results depend on the processing

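The median log2 ratio of the LINC genes stayed negative under each alternative except leaving out total RNA replicate 2. The same held for the median of all genes. With each array left out in turn the LINC median ran from -1.46 to 0.44. The LINC median minus that of all genes, -0.11 in the main setting, was not stable. It was -0.20 with quantile normalization, -0.25 with the wider filter, -0.27 with normexp and -0.35 with the GC trend removed. With each array left out this difference ran from -0.61 to 0.40. With the replicate block limma called 2 LINC genes, LINC00973 and LINC02992 (1.37%, against 3.19% of all genes), with the replicate block and the GC trend removed 12 (8.57%, against 7.27%), and with each array left out between 0 and 26. The other alternatives called 0. More than 2.5-fold above GAPDH were 60 with normexp, 8 with quantile normalization and 46 with the GC trend removed. A wider filter that asks for detection on both arrays of either group gave 165 (69.9%, against 72.4% of all genes). At 4-fold there were 37 (25.3%, against 39.2%). With each array left out there were 85 to 91 (58.2% to 62.3%), while the share of all genes ran from 40.9% to 71.4%. Both TIA1 RIP arrays exceeded both total RNA arrays in 8 with normexp, 9 (6.16%, against 18.2%) with the percentile over probes detected on all arrays, 10 with the median of all genes at 0, 15 (6.36%, against 19.4%) with the wider filter and 8 (3.94%, against 14.9%) with older symbols counted. They lay below both in 44 (18.6%, against 21.7%) with the wider filter and 44 (21.7%, against 27.9%) with older symbols, which made 59 and 52 with separate groups in all. The wider filter held 236 LINC genes and older symbols 203. The cause of these changes was not tested.

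Among the named genes, LINC00467 turned to 0.091 with the percentile over probes detected on all arrays and 0.088 with the median at 0, and LINC00707 to 0.035 and 0.032. With each array left out in turn, 10 genes had both signs, over a range of -0.078 to 1.54 for LINC00299, -0.83 to 0.62 for LINC00467, -0.37 to 1.30 for LINC00673, -1.42 to 1.09 for LINC00707, -1.36 to 0.16 for LINC00941, -0.017 to 1.72 for LINC00958, -2.29 to 0.57 for LINC01088, -0.50 to 2.53 for LINC01121, -0.45 to 2.72 for LINC01133 and -2.82 to 0.34 for LINC02138. The scaling moved the median of all genes from -0.35 to -0.16. The low signal over background on total RNA replicate 2 limits every ratio of a dim gene.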
